A study of Homo sapiens with 4 samples.

Results

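Ribosome biogenesis and nucleolar factors are the proteins that transcribe, modify, cut and assemble ribosomal RNA in the nucleolus. The group described here holds 38 genes fixed by name, and 35 of them were measured, of 18377 genes on the arrays. A gene counted as measured where at least 1 probe set carried its symbol and no other. NOP56 lies only on a probe set that the annotation gives to more than 1 symbol, and DDX18 and GNL3 are on no probe set named here, so these 3 members are not analysed. The cells were MOLM-14, an established line from human acute myeloid leukemia of monocytic type, grown in serum-containing medium. The DMSO group of 2 samples received the solvent only, and the DZNep group of 2 samples received DZNep at 2 µM, each for 24 h. The compound, 3-deazaneplanocin A, inhibits the hydrolase that clears S-adenosylhomocysteine, and the by-product that then builds up holds back methyltransferases. The labels name biological replicates without saying if cultures were separate. The p-values therefore reflect the spread among these 4 samples alone, part of which may be technical.

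A ribosome begins as a long precursor RNA made by RNA polymerase I. Small nucleolar ribonucleoproteins (snoRNPs) of the box C/D kind methylate the sugars of that RNA with fibrillarin, and those of the box H/ACA kind turn uridines into pseudouridines with dyskerin. The small subunit processome folds and cuts the precursor of the small subunit, while a separate set of factors builds the large one. MYC is a well-known activator of these genes and binds the E-box hexamer CACGTG. Fibrillarin and NOP2, RNA methyltransferases among the members, take their methyl groups from S-adenosylmethionine.

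Most members had a slightly lower level with DZNep, and few passed the test. The members past the threshold were DDX21, LYAR, DKC1, NOP58, POLR1B and UTP20, which fell, and NOP10, which rose. That is 6 of 35 called lower and 1 called higher (limma, adjusted p under 0.05 over all genes tested), beside 6.68% of all genes called lower, 3.62% called higher and 10.3% called in either direction. The log2 fold change, DZNep minus DMSO, was negative for 29 of the 35 members, beside 44.6% of all genes tested. Its median was −0.15, beside 0.02 over all genes tested. Nearly all members were bright, and 34 of the 35 remained without the dimmest 50% of genes. Of these 34, 10 were called lower and 2 higher (limma), beside 16.1% and 8.63% of the 9189 genes kept. Their median was −0.15, beside −0.006 over the genes kept. Shares of all genes given here and in the classes below include the dim genes, and genes matched to the members for brightness were not tested. Deposited intensities had a lowest value of 18.1 to 18.5 on each array, and whether a constant was added to them is not known; a constant would make these folds smaller. The changes ran from a log2 fold change of −0.61 for DDX21 to 0.40 for NOP10. Both DZNep arrays lay below both DMSO arrays for 21 members and above them for 4, while 10 overlapped. Over all genes these shares were 23.9% below and 25.9% above. Fewer cells making a transcript and less of it per cell cannot be told apart in these bulk samples.

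Promoters of the members that passed the test are shown because an E-box stood near the start of many of these genes. The windows come from a table of RefSeq promoters (GRCh38.p14) that is not complete. It matched 31 of the 38 members by symbol, and NOP58 was not among them. Each line gives the 250 bases before an annotated start, on the gene's strand. DDX21, LYAR and POLR1B have 2 windows each, and a window that holds the marked letters was picked for display. The other window of DDX21 and that of LYAR lack CACGTG, while both POLR1B windows hold CCGGAAG. Capitals mark CACGTG in the first 4. The windows of DKC1 and POLR1B lack it, so capitals there mark another motif that was found in them. In DKC1 they mark GCATGCGC and its overlapping reverse complement, which make up the palindrome bound by the factor NRF1, and in POLR1B CCGGAAG, a core that ETS family factors bind. Their positions are chr10:68956397-68956646 (plus strand) for DDX21, chr4:4290022-4290271 (minus strand) for LYAR, chr12:101279855-101280104 (plus strand) for UTP20, chr15:34343137-34343386 (minus strand) for NOP10, chrX:154762614-154762863 (plus strand) for DKC1 and chr2:112541786-112542035 (plus strand) for POLR1B.
DDX21: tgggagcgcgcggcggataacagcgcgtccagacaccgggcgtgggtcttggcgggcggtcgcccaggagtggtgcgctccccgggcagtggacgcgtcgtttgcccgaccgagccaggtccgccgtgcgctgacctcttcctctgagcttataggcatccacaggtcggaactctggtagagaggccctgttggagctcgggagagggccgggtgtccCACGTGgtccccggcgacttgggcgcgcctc
LYAR: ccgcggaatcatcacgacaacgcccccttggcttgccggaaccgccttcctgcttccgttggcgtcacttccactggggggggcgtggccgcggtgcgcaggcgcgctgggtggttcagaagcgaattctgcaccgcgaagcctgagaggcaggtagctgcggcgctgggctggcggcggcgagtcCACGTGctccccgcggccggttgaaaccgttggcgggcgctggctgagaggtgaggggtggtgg
UTP20: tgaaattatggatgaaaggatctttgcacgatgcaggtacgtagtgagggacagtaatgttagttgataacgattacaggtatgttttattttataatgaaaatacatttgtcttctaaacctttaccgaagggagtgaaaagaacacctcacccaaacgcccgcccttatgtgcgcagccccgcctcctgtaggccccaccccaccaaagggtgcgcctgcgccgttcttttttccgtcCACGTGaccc
NOP10: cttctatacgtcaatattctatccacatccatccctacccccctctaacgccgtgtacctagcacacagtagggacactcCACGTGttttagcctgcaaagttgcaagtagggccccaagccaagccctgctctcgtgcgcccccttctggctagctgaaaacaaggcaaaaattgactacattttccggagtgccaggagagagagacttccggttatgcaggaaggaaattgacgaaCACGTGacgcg
DKC1: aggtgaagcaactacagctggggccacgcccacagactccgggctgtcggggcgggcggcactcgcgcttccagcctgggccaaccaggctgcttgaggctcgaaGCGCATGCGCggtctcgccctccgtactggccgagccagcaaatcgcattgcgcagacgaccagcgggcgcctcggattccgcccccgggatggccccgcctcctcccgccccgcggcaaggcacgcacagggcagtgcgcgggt
POLR1B: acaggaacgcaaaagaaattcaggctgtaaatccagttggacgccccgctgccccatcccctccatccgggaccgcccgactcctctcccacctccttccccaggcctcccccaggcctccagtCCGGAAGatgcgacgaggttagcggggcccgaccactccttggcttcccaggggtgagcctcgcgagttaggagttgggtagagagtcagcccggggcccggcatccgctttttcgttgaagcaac

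CACGTG lay at −31 in the DDX21 window, at −64 in that of LYAR, at −10 in that of UTP20, and at both −170 and −11 in that of NOP10, counted to its first base with −1 the base before the start. In whole windows, from 250 bases before to 50 after a start, the hexamer, a palindrome that reads alike on both strands, was found in 15 of 31 members (48.4%). It was found in 10.9% of the 14210 tested genes that have a window, and in 7.26% of all 35116 windows. Before the start, in the 250 bases shown, 5 of 31 members held it (16.1%), beside 9.8% of tested genes. After the start, in the first 50 bases, 9 of 31 members held it (29.0%), among them FBL, WDR43, PES1, NOC3L and NOP2, beside 1.27% of tested genes. The motifs and these window parts were chosen after the data were seen, with whole windows searched first. Some genes have more than 1 window, which raises a gene's chance to hold a match. In 111 other genes of ribosome production that have a window, from lists described below each class, the share was 27.9% in whole windows. For these genes it was 16.2% before the start and 15.3% after it.

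**Figure D1:**
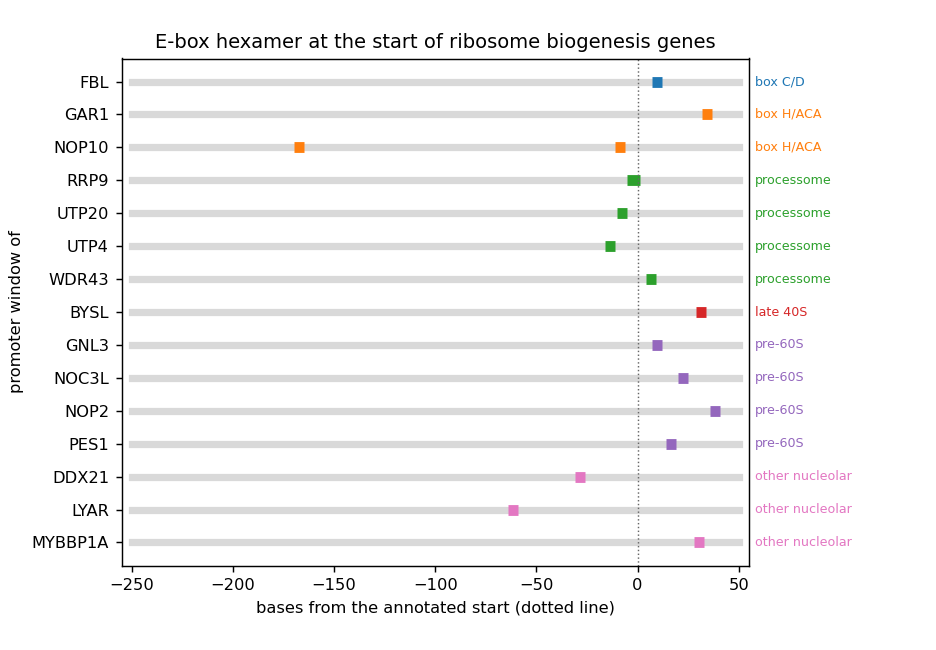
Position of the E-box hexamer in promoter windows of the 15 members that hold it, in bases from the annotated start (dotted line); grey bars span the window and coloured marks the hexamer. All but 1 of the marks, the far one of NOP10 at −170, lie between −64 and 41.

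Changes of members with the hexamer and without it are set side by side here, and their difference was not tested. The 14 measured members with it had a median log2 fold change of −0.21, with 3 called lower. The 15 measured members without it had −0.15, with 2 called lower. The 2 window parts were chosen after the data were seen, and a difference between them was not tested. The 5 members with it before the start were DDX21, LYAR, UTP20, UTP4 and NOP10. Their median was −0.40, with 3 called lower, beside −0.15 and 2 of 24 without it there. The 8 measured members with it after the start had −0.12, with 0 called lower, beside −0.18 and 5 of 21 without it there. NOP10, which rose, has the hexamer 2 times. The other motifs searched, on both strands, were CCGGAAG in 11 members (35.5%, beside 16.8% of tested genes), GCATGCGC in 4 (12.9%, beside 4.87%), TCTCGCGA in 2 (6.45%, beside 2.06%), CCAAT in 14 (45.2%, beside 42.2%) and TGATGCAA, the C/EBP-ATF composite element, in 0 of 31, beside 0.971%. A match describes letters in the window and not binding in these cells. MYC itself, the best known E-box factor of this pathway, had log2 intensities of 11.15 and 11.12 with DMSO, and of 11.03 and 10.96 with DZNep. Its log2 fold change of −0.14 did not pass (limma adjusted p = 0.46).

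Of the 2 box C/D proteins measured, NOP58 fell. This gene, which encodes a core protein of these particles, had log2 intensities of 10.97 and 11.15 with DMSO and of 10.61 and 10.67 with DZNep. The arrays did not overlap, and the fall was 1.34-fold (limma, log2 fold change −0.42, adjusted p = 0.0306, SE 0.10). FBL, the methyltransferase fibrillarin, went from 10.76 ± 0.05 to 10.43 ± 0.12 (SD, n = 2 arrays each) and did not pass, at −0.33 (limma adjusted p = 0.0746). The call of NOP58 ended under quantile (0.0693) and cyclic loess (0.0621) normalization. It also ended without DMSO replicate 2 (limma adjusted p = 0.0628, log2 fold change −0.33), DZNep replicate 1 (0.196, −0.39) or DZNep replicate 2 (0.107, −0.45).

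Among the 4 box H/ACA proteins, which sit in the same particle, 1 fell and 1 rose. DKC1, the pseudouridine synthase dyskerin, read 9.91 in both DMSO samples and 9.42 and 9.47 with DZNep. It fell 1.38-fold (limma, log2 fold change −0.46, adjusted p = 0.0136, SE 0.09). NOP10, a small protein that binds dyskerin, read 9.44 and 9.25 with DMSO and 9.79 and 9.71 with DZNep, with no overlap. It rose 1.32-fold (limma, log2 fold change 0.40, adjusted p = 0.0393, SE 0.10). GAR1 at −0.05 and NHP2 at 0.06 had overlapping arrays. A second NHP2 probe set had a log2 fold change of 0.00. The DKC1 call ended without DZNep replicate 1 (limma adjusted p = 0.121, log2 fold change −0.44) or DZNep replicate 2 (0.0645, −0.49). The NOP10 call ended under median centring (limma adjusted p = 0.0736) and without DMSO replicate 2 (0.0814, log2 fold change 0.31), DZNep replicate 1 (0.266, 0.36) or DZNep replicate 2 (0.11, 0.44).

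**Figure D2:**
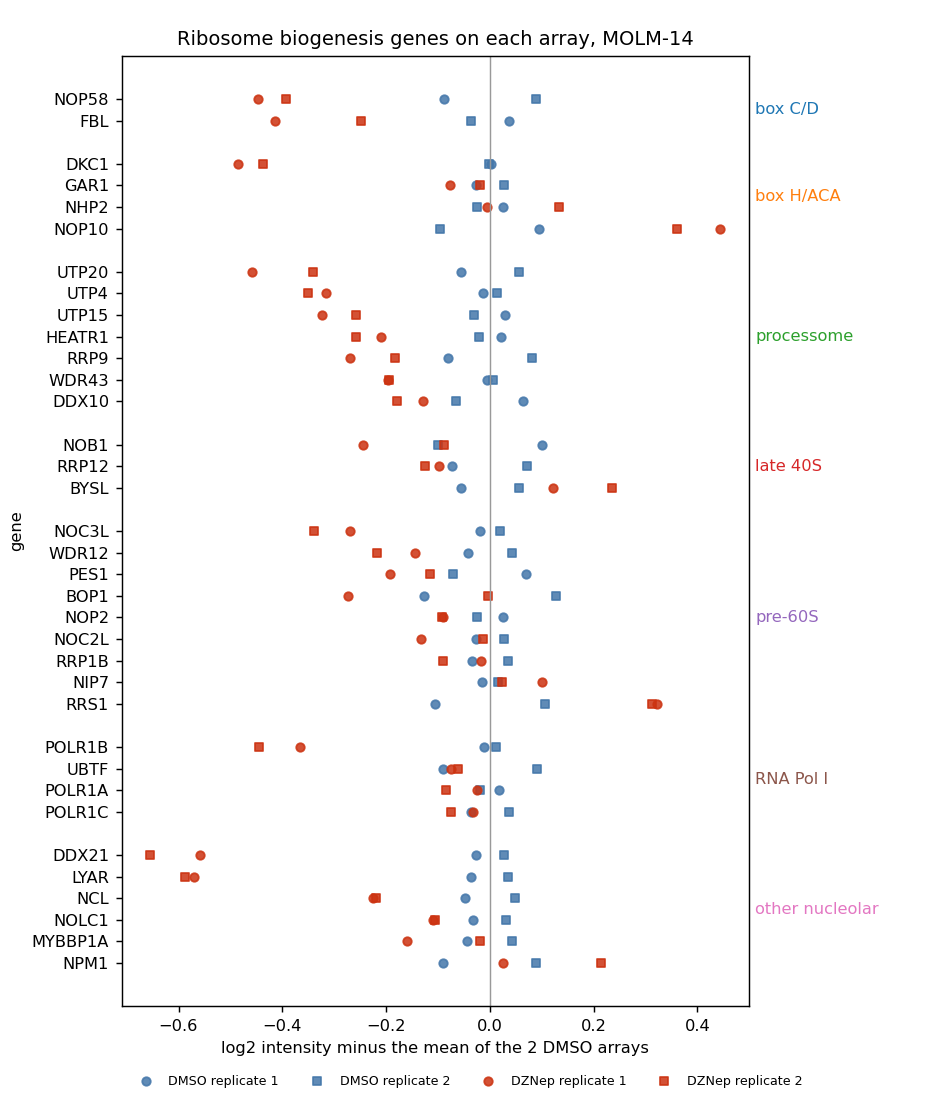
Log2 intensity of each of the 35 measured members on each array, less the mean of its 2 DMSO arrays, grouped by role (blue DMSO, red DZNep; circle replicate 1, square replicate 2). All 7 processome genes have both red marks left of both blue ones, while DKC1 and NOP10 of the box H/ACA class lie on opposite sides.

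The 7 processome genes shared a direction, and 1 of them passed the test. All 7 had a negative log2 fold change, from −0.40 to −0.15, and in all 7 both DZNep arrays lay below both DMSO arrays, beside 23.9% of all genes. Their median was −0.23, and the 4 pairings of a DZNep with a DMSO array, which share arrays, gave medians of −0.23, −0.28, −0.29 and −0.24. UTP20, a long scaffold protein of the particle, was the only one past the threshold. It read 8.28 and 8.39 with DMSO and 7.88 and 7.998 with DZNep, a 1.32-fold fall (limma, log2 fold change −0.40, adjusted p = 0.034, SE 0.10). UTP4, UTP15, HEATR1 and WDR43, parts of the module that meets the nascent precursor RNA, had −0.33, −0.29, −0.23 and −0.20. UTP4 came closest to the threshold (limma adjusted p = 0.0534) and passed it under median centring (0.0438). RRP9, the protein specific to the U3 snoRNP, had −0.23 and the helicase DDX10 −0.15. The UTP20 call ended without DMSO replicate 2 (limma adjusted p = 0.0691, log2 fold change −0.34), DZNep replicate 1 (0.32, −0.34) or DZNep replicate 2 (0.0929, −0.46).

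Of 33 other processome genes measured, 30 had a negative log2 fold change, beside 44.6% of all genes, with a median of −0.13. Of the 33, 4 were called lower and 1 higher, beside 6.68% and 3.62% of all genes. The 4 were WDR3 at −0.42 and PWP2 at −0.38, both of the UTP-B module, AATF at −0.40 and PDCD11 at −0.38. UTP3 was the 1 that rose, at 0.38 (limma adjusted p = 0.0333), and is named after its value was seen. PDCD11 has more than 1 probe set, and the mean over them was −0.22 (limma adjusted p = 0.213). Calls of WDR3, AATF, PDCD11 and PWP2 ended when either DZNep array was dropped (limma adjusted p from 0.109 to 0.302). Those of AATF (0.071, log2 fold change −0.34) and PDCD11 (0.0745, −0.33) ended without DMSO replicate 1, and that of PWP2 under quantile normalization (0.0521) and without DMSO replicate 2 (0.0741, −0.31).

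**Figure D3:**
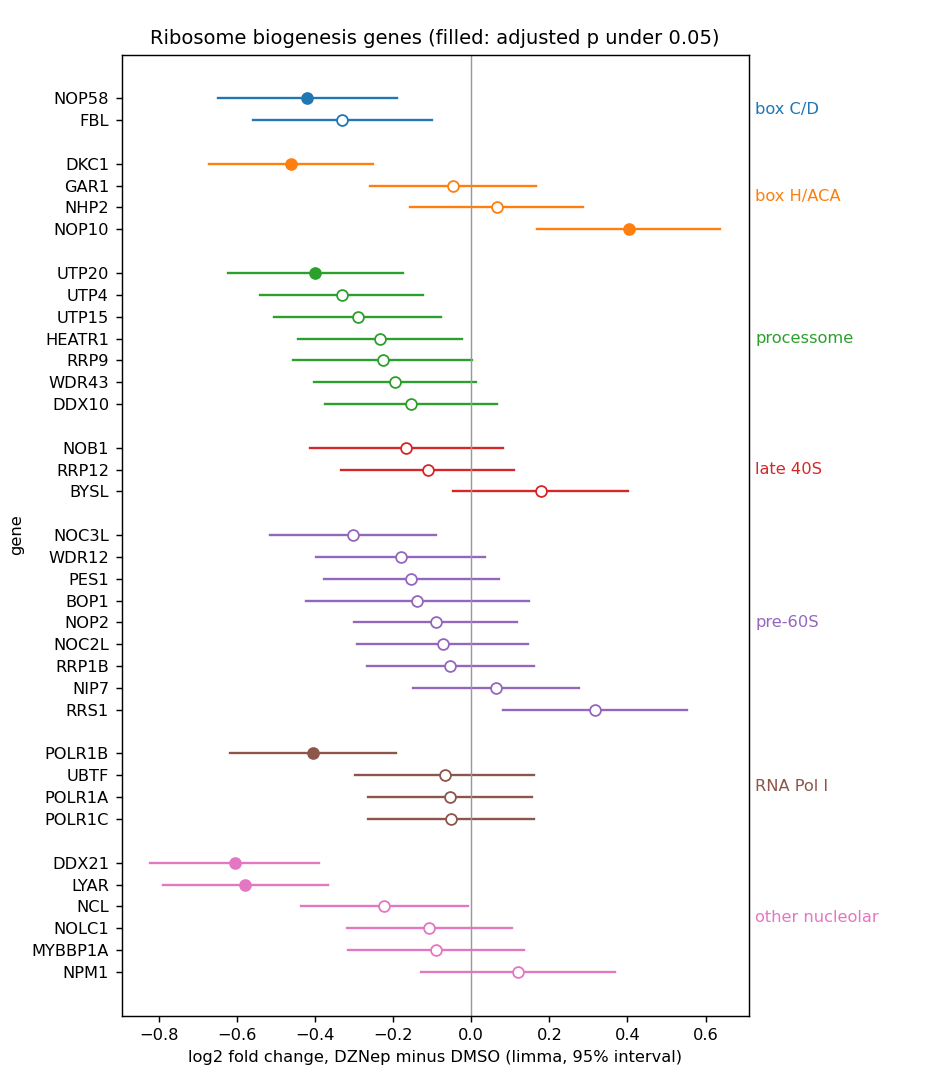
Log2 fold change of each measured member, DZNep minus DMSO, with its 95% interval from limma; filled points passed the test over all genes. The intervals are of similar width because limma pools the spread across genes, and 7 points are filled.

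Of the 4 RNA polymerase I members, 1 fell and the others did not pass. POLR1B, the second largest subunit, read 9.48 and 9.50 with DMSO and 9.13 and 9.05 with DZNep, and the arrays did not overlap. It fell 1.32-fold (limma, log2 fold change −0.40, adjusted p = 0.0262, SE 0.09). The largest subunit POLR1A had −0.05, POLR1C, shared with RNA polymerase III, −0.05, and UBTF, the factor that opens the ribosomal DNA, −0.07. The 95% intervals of these 3 ran from −0.30 to 0.16 at their widest. The POLR1B call ended without DZNep replicate 1 (limma adjusted p = 0.11, log2 fold change −0.44) or DZNep replicate 2 (0.268, −0.37).

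Other polymerase I genes held the largest rise and the largest fall among all pathway genes listed here. Of 12 measured, 2 were lower and 2 higher (limma), beside 6.68% and 3.62% of all genes, with a median of −0.11. TAF1D, a subunit of the promoter factor SL1, read 10.19 and 10.07 with DMSO and 9.19 and 9.27 with DZNep (limma, log2 fold change −0.90, adjusted p = 0.000639, SE 0.10). POLR1F, a stalk subunit of the enzyme, read 8.20 and 8.45 with DMSO and 9.42 and 9.28 with DZNep, a 2.04-fold rise (limma, log2 fold change 1.03, adjusted p = 0.000709, SE 0.11). POLR1E, which forms a dimer in the same enzyme, had −0.75 (limma adjusted p = 0.00143). These 3 calls held under each of the 14 alternatives. TAF1B, another SL1 subunit, had 0.39. That call (limma adjusted p = 0.0335) ended under median centring (0.0668) and without DMSO replicate 2 (0.062, log2 fold change 0.33), DZNep replicate 1 (0.193, 0.39) or DZNep replicate 2 (0.221, 0.39).

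The nucleolar proteins of general or mixed function held the largest falls of the group. DDX21, an RNA helicase that binds ribosomal DNA and snoRNAs, read 10.85 and 10.91 with DMSO and 10.32 and 10.23 with DZNep. It fell 1.52-fold (limma, log2 fold change −0.61, adjusted p = 0.00423, SE 0.10). LYAR, a zinc finger protein of the nucleolus in growing cells, read 8.54 and 8.62 with DMSO and 8.01 and 7.99 with DZNep. It fell 1.49-fold (limma, log2 fold change −0.58, adjusted p = 0.0048, SE 0.09). The groups were apart for both genes, and both calls held under each of the 14 alternatives, with adjusted p up to 0.0214 and 0.0176. NCL, nucleolin, had −0.22 and NOLC1, a chaperone of snoRNPs, −0.11, both with separate arrays and without passing the test. MYBBP1A had −0.09 with overlap. NPM1, nucleophosmin, had 0.12 with overlap. Its probe set was dim, at percentile 24.4 of all genes by mean log2 intensity, although the transcript is known to be abundant in growing cells.

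Among the factors of the large subunit none passed the test (limma), and at an unadjusted p under 0.05 there was 1 lower and 1 higher. At that cut 2343 of all 18377 genes were lower and 1733 higher, the base for the unadjusted counts here and below. Of 9 members measured, 7 had a negative log2 fold change, beside 44.6% of all genes, with a median of −0.09. NOC3L, which takes part in early large subunit assembly and transport, had the lowest at −0.30 (limma adjusted p = 0.077). WDR12, PES1 and BOP1, which form the PeBoW complex, had −0.18, −0.15 and −0.14. A second BOP1 probe set gave −0.25. The RNA methyltransferase NOP2 had −0.09, NOC2L −0.07, RRP1B −0.05 and NIP7 0.06. RRS1, which brings the small ribosomal RNA of the large subunit into the particle, went the other way. It read 8.56 and 8.78 with DMSO and 8.99 and 8.98 with DZNep, with no overlap, a difference of 0.32 on the log2 scale that did not pass (limma adjusted p = 0.097). Without DMSO replicate 2 that value was 0.42 and passed (limma adjusted p = 0.0303).

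Of 44 other genes of the large subunit measured, 8 were lower and none higher (limma), beside 6.68% and 3.62% of all genes. Their median was −0.16. At an unadjusted p under 0.05, 18 were lower and 0 higher, beside 2343 and 1733 of all 18377 genes. NMD3, the export adaptor of the large subunit, read 10.87 and 10.79 with DMSO and 10.07 and 10.18 with DZNep (limma, log2 fold change −0.71, adjusted p = 0.00214, SE 0.10). RPF2, the partner of RRS1, had −0.54 (limma adjusted p = 0.00678) on the brighter of its 2 probe sets. Both calls held under each of the 14 alternatives. RSL24D1 had −0.53 (limma adjusted p = 0.0123, and 0.138 with −0.43 without DZNep replicate 1). SBDS, which helps release EIF6 from the new subunit, had −0.46. Its limma adjusted p of 0.0454 rose to 0.125 (log2 fold change −0.29) without DMSO replicate 1 and 0.17 (−0.41) without DZNep replicate 1.

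None of the 3 members of late small subunit maturation passed either (limma; 0 at an unadjusted p under 0.05). BYSL, the bystin protein, read 9.21 and 9.32 with DMSO and 9.39 and 9.50 with DZNep, at 0.18 (limma adjusted p = 0.358). The endonuclease NOB1 had −0.17 with overlap and RRP12 −0.11 without. Of 9 other genes of this step, 2 were lower and none higher (limma), beside 6.68% and 3.62% of all genes. At an unadjusted p under 0.05 there were 3 and 1. DIMT1, a dimethyltransferase of the small subunit RNA, had −0.63 (limma adjusted p = 0.00387), which held under each of the 14 alternatives. The kinase RIOK1 had −0.42 (limma adjusted p = 0.0229), and its call ended without DZNep replicate 1 (0.125, −0.43) or DZNep replicate 2 (0.183, −0.40).

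**Figure D4:**
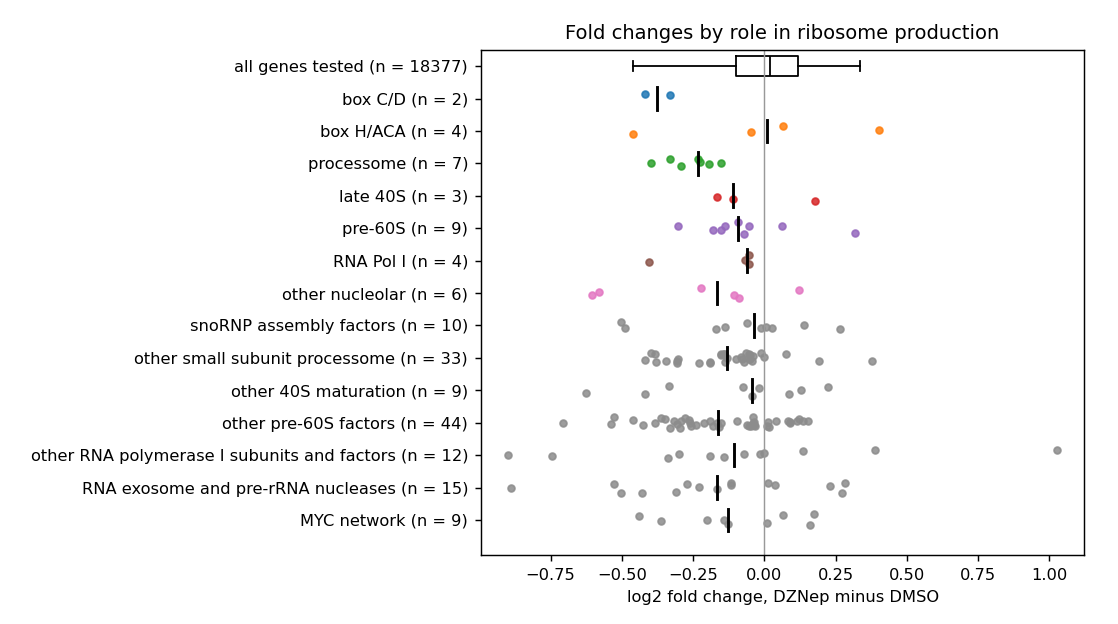
Log2 fold change of each measured gene by role, members in colour and the other pathway lists in grey, with black bars at the medians; the box for all genes spans the quartiles and its whiskers run from percentile 5 to 95. POLR1F at 1.03 and TAF1D at −0.90 lie farthest out.

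The remaining lists were the factors that assemble snoRNPs, the RNA exosome and the MYC network. The base for their counts is 6.68% of all genes called lower and 3.62% called higher (limma). Of 10 assembly factors measured, 2 were lower and none higher (limma; 2 and 1 at an unadjusted p under 0.05), with a median of −0.04. They were RUVBL2 at −0.50 and RUVBL1 at −0.49, paired ATPases (limma adjusted p = 0.0196 and 0.0104). The RUVBL1 call ended without DZNep replicate 1 (limma adjusted p = 0.0614) or DZNep replicate 2 (0.0588), with values of −0.49 in each. That of RUVBL2 ended without DMSO replicate 2 (limma adjusted p = 0.0577, log2 fold change −0.46) or DZNep replicate 1 (0.223, −0.38). Of 15 exosome and nuclease genes, 4 were lower and none higher (limma; 7 and 2 at an unadjusted p under 0.05), with a median of −0.17. EXOSC8 led them, from 9.54 and 9.32 with DMSO to 8.50 and 8.58 with DZNep (limma, log2 fold change −0.89, adjusted p = 0.00105, SE 0.11). EXOSC1 had −0.53, EXOSC9 −0.50 and EXOSC2 −0.43. The calls of EXOSC8 and EXOSC1 held under each of the 14 alternatives. That of EXOSC9 ended without DZNep replicate 2 (limma adjusted p = 0.0572, −0.49), and that of EXOSC2 without DZNep replicate 1 (0.164, −0.41) or DZNep replicate 2 (0.107, −0.45). In the MYC network, 1 of 9 genes was lower, the MYC antagonist MXI1 at −0.44. Its limma adjusted p of 0.0367 became 0.107 (log2 fold change −0.32) without DMSO replicate 1, 0.222 (−0.38) without DZNep replicate 1 and 0.052 (−0.50) without DZNep replicate 2. Over the 123 other genes of ribosome production, 22 were lower (17.9%) and 3 higher (limma), beside 6.68% and 3.62% of all genes. Among the members 17.1% were lower. Both sets were chosen with earlier results of these data known, so their likeness is not independent evidence.

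The class medians ordered the members as box C/D at −0.38 over 2 genes, the processome at −0.23, the nucleolar proteins of general function at −0.16, late small subunit maturation at −0.11, the large subunit factors at −0.09, RNA polymerase I at −0.06 and box H/ACA at 0.01. These classes are small, the differences between them were not tested, and the box H/ACA median changed sign between alternatives, from −0.04 without DZNep replicate 2 to 0.06 without DZNep replicate 1. With DMSO replicate 1 left out the late small subunit class had −0.067, and with DMSO replicate 2 left out −0.040. The polymerase I median went from −0.12 without DMSO replicate 1 to −0.01 under quantile normalization. The processome median stayed between −0.27 and −0.22.

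**Figure D5:**
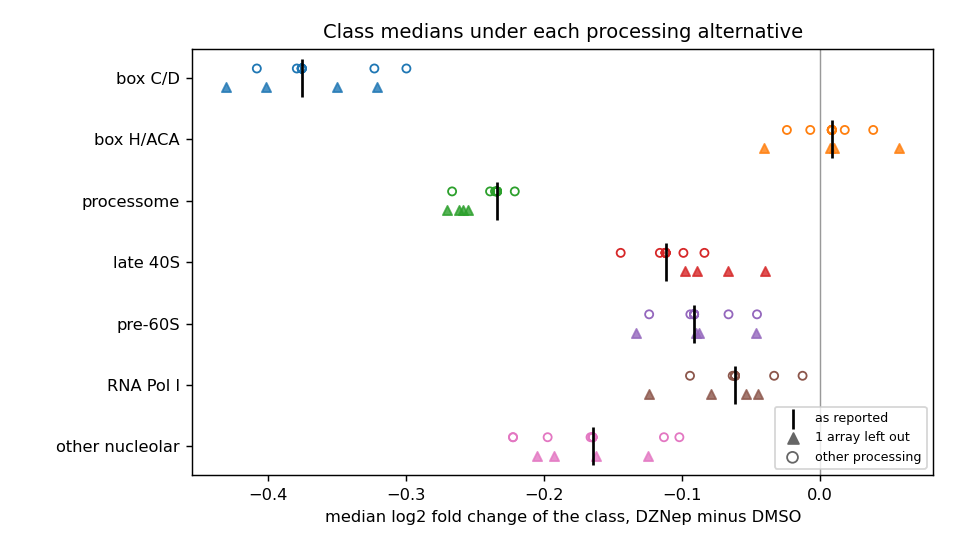
Median log2 fold change of each class under each processing alternative; black bars are the reported values, triangles leave out 1 array and open circles change another choice. The processome keeps to between −0.27 and −0.22, while box H/ACA lies on both sides of 0.

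The median log2 value of an array was 6.99 and 7.07 with DMSO and 7.07 and 7.05 with DZNep, and the number of arrays limits the precision. DMSO replicate 1 had the lowest median and the highest upper quartile, 8.37. The upper quartile was 8.30 on DMSO replicate 2, and 8.30 and 8.33 with DZNep. The median over members, −0.15 as reported, was −0.10 under quantile normalization, −0.13 under cyclic loess and −0.19 under median centring. The DMSO arrays differed from each other more than the DZNep arrays did, with an SD of the log2 difference over all genes of 0.197 against 0.138. Members were lower on DMSO replicate 1 than on DMSO replicate 2 for most genes, since only 11 of 35 (31.4%) were higher there, beside 47.4% of all genes. The median gap was 0.05, and its part in the results was not tested. Of 10 markers of monocytic leukemia cells 8 were measured, at percentiles of all genes from 56.6 (CSF1R) and 64.2 (ITGAM) to 99.2 (FLT3) and 99.8 (LYZ). FLT3 fell, with a log2 fold change of −0.94, and LYZ and CSF1R rose, at 0.53 and 0.47. The 4 T cell markers lay at percentiles 16.4 to 22.3, the 3 B cell markers measured at 7.86 to 35.4, the 3 erythroid markers measured at 19.9 (HBB) to 62.6 (KLF1) and the 4 markers of epithelial cells and fibroblasts at 15.9 (CDH1) to 58.7 (COL1A1). KLF1 and COL1A1 thus lay between CSF1R and ITGAM, and EPOR, at 53.4, just below them. None of these 14 markers of other cells passed the test (limma; 0 at an unadjusted p under 0.05).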

How the data were processed

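Gene expression was measured in 4 samples, and the authors deposited linear intensity values by probe set, made with RMA per the submitters' processing notes. Its settings and version were not given in the sources used here. Of 28869 probe sets, 19310 have 1 gene symbol, 1752 several and 7807 none in the annotation used. RefSeq held the Entrez IDs of 19279, and 0 symbols changed. An added constant may lie in the deposited values, whose minimum by array was 18.1 to 18.5. Log2 of the intensity was taken without a pseudocount, filter or further normalization. Of several probe sets for a gene, the brightest by mean log2 stands for it. Group was tested with limma 3.58.1 in R 4.3.3 (eBayes, two-sided, Benjamini-Hochberg over all 18377 genes, threshold 0.05, 2 residual and 7.18 prior degrees of freedom), a script tested on simulated data.

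The members and lists were chosen with earlier results of these data known. All members are named, with values by array for those past the threshold and the largest change of each class. From each other list up to 4 called genes with the largest change are named, or 1 where none passed, and MYC always. Promoter motifs were chosen after the data were seen. Whole 300-base windows were searched first, then the 250 bases before the start alone, then both parts apart, and all 3 shares of the E-box are given. A motif for NRF1 of 10 letters was tried before the 8 letters reported. The alternatives were a replicate block, an intensity trend, quantile or cyclic loess normalization, median centring, subtracting 16, averaging probe sets, dropping the dimmest 25% or 50%, and leaving out each array. A crossed block was added after seeing the data.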

Additional observations from a re-analysis of the deposited data

How the results depend on the processing

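Precision rests on 2 arrays a group, so most calls near the threshold depend on the choice of processing. Members called lower numbered 10 without the dimmest 50% of genes, beside 16.1% of all genes kept there. They numbered 3 with 16 subtracted before log2 (4.52% of all genes) and 11 with an intensity trend (9.09%), beside 6 as reported (6.68%). Members called higher numbered 2 without the dimmest 50% of genes (8.63% of the genes kept), with an intensity trend (5.15% of all genes) or with a crossed replicate block (5.63%). They numbered 0 under median centring (2.78%) or with 16 subtracted (2.42%), beside 1 as reported (3.62%). The calls of NOP58, DKC1, NOP10, UTP20 and POLR1B each ended with either DZNep array left out, while those of DDX21 and LYAR held. The median over members was −0.12 without DZNep replicate 1 and −0.16 without DZNep replicate 2, beside 0.009 and 0.026 over all genes. An intensity trend added FBL, HEATR1, NCL, NOC3L and UTP4 to the lower members and RRS1 to the higher ones, and subtracting 16 ended the calls of NOP58, NOP10, UTP20 and POLR1B, and among the other pathway genes named those of RUVBL2, WDR3, AATF, PDCD11, PWP2, RIOK1, SBDS, TAF1B, EXOSC2 and MXI1 (adjusted p from 0.0517 to 0.0925). Over all genes, left-out arrays gave 1173 to 2438 calls (734 to 1662 lower and 336 to 776 higher), beside 1892. The replicate block, in which same-numbered deviations correlated at −0.219, called 6 members lower and 1 higher, beside 7.36% and 4.1% of all genes. The crossed block called 1034 genes higher, beside 665. It called 9 members lower, beside 6 as reported and 9.2% of all genes, adding FBL, NOC3L and UTP4. Class medians moved to −0.30 (box C/D), −0.046 (pre-60S), −0.013 (RNA polymerase I) and −0.10 (nucleolar proteins) under quantile normalization, to −0.27 (processome) and −0.12 (pre-60S) under median centring, to −0.066 (pre-60S) under cyclic loess and to −0.22 (nucleolar proteins) without the dimmest 25% or 50% of genes. With 1 array left out they lay between −0.27 and −0.26 for the processome, −0.13 and −0.046 for pre-60S factors −0.12 and −0.045 for RNA polymerase I and −0.098 and −0.040 for late small subunit maturation. No called value changed sign. Dropping the dimmest genes removed NPM1, at 0.12, from the nucleolar proteins, which left NCL, at −0.22, as their median. The cause of the other moves was not tested.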
